A study of Mus musculus with 9 samples.

Results

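Heat shock proteins and their DNAJ co-chaperones were followed in mouse gastrocnemius, a large calf muscle, across sedentary, trained, and trained and metformin-treated mice. Members were protein-coding genes, chosen by their GRCm38 symbol. It begins with Hspa or Hspb and a digit, or with Dnaja, Dnajb or Dnajc, or is Hspd1, Hspe1, Hsph1 or an Hsp90 gene. This rule used no measured value and gave 72 of the 55416 gene identifiers in the deposited table. Families were assigned by gene symbol. Of the 72, 11 were counted as HSP70, 3 as HSP110, 3 as HSP90 and 2 as the mitochondrial chaperonin. Another 8 were counted as small heat shock proteins, 4 as DNAJA, 13 as DNAJB and 28 as DNAJC. Hspb11 stands among the small heat shock proteins by its symbol only. Another 14 identifiers matched the pattern but are processed pseudogenes, and they were left out. Counts were high enough to test 63 members. The other 9 (Dnajb3, Dnajb7, Dnajb8, Dnajb13, Dnajc5b, Dnajc5g, Dnajc6, Dnajc22 and Hspb9) had between 0 and 10 counts in every library.

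The study has 3 groups with 3 libraries each. SED mice were sedentary. AET mice ran on a treadmill, which is aerobic exercise training, on 5 days per week for 60 min per day over 8 weeks. AET_MET mice had the same training and took metformin, an oral glucose-lowering drug, in their drinking water at 2 mg/mL. No mouse group with metformin and no training was analysed here, and the labels state no strain, age or sex. The labels do not say that the libraries of a group came from separate mice, so the spread that p-values rest on is that among libraries and may be technical. Libraries held 15434424 to 25355877 expected counts. The fast fiber and skeletal muscle markers summed to between 124194 and 146941 CPM (counts scaled to library size and between libraries) in each library, as the tissue label says.

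Chaperones bind unfolded or partly folded proteins and keep them from aggregating. HSP70 proteins do this in cycles of ATP hydrolysis, which DNAJ proteins start by delivering a client, and which exchange factors such as the HSP110 proteins reset. HSP90 proteins act later, on nearly folded clients, while small heat shock proteins hold clients without ATP and are abundant in striated muscle. The cytosol, the endoplasmic reticulum (ER) and the mitochondrion each have an own set. Heat shock factor 1 induces many cytosolic and mitochondrial members through heat shock elements (HSE), inverted repeats of the unit GAA. The unfolded protein response of the ER acts on the ER set, in part through the ER stress element (ERSE).

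Promoter sequences were read from the RefSeq promoter table on GRCm38.p6, and 58 of the 72 members had an entry. In the 250 bases before each start, an HSE of 2 units was found (GAA and TTC in either order with any 2 bases between them, both strands) in 21.3% of the member windows and in 12.8% of all 32851 windows. An HSE of 3 units (a further GAA or TTC in alternation, again after 2 bases, so that it contains the shorter motif) was found in 5.33% and 0.466%. The ERSE (CCAAT and CCACG with any 9 bases between them, both strands) was found in 4.0% and 0.113%. A match is a run of letters and not a site of binding. The sequences below are of the 5 members that were lower in AET_MET than in AET, of Dnajb6, which was lower than in SED in both trained groups, and of the 3 members with an ERSE. Capitals mark the motif, and each is written 5′ to 3′ on the strand of its gene. Hspa1a (chr17:34972183-34972330, minus strand) and Hspb6 (chr7:30553111-30553258, plus strand) are shown as promoter stretches that end 27 and 43 bases before the start. Hsph1 (chr5:149636351-149636380, minus), Dnaja4 (chr9:54699458-54699487, plus), Hspd1 (chr1:55088055-55088084, minus) and Dnajb6 (chr5:29735844-29735873, plus) are shown as short sites. The ERSE stretches are of Hspa5 (chr2:34772020-34772049, plus), Hsp90b1 (chr10:86705510-86705694, minus) and Dnajc3 (chr14:118937757-118937915, plus).
Hspa1a: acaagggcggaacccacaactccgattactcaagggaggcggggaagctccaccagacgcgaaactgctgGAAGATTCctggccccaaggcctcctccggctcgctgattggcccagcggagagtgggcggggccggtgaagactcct
Hspb6: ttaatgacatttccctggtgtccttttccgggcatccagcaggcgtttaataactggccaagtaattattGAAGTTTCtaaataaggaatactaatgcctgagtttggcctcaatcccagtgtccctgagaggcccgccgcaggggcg
Hsph1: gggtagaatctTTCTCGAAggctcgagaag
Dnaja4: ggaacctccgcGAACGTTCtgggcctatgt
Hspd1: gcggggccTTCCGGAAGGTTCTAGAAcgga
Dnajb6: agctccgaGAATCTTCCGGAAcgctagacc
Hspa5: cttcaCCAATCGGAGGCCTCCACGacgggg
Hsp90b1: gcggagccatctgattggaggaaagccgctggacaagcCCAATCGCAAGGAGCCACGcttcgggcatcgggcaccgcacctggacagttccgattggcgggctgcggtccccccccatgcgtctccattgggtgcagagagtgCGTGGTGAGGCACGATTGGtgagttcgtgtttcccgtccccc
Dnajc3: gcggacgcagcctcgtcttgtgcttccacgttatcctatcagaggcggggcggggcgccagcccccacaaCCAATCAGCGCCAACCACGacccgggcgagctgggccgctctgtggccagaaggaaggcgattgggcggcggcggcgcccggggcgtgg
Hspa1a and Hspb6 each hold 1 HSE of 2 units. Dnaja4 holds a second one in its window outside the stretch shown, and Hspd1 carries 2 overlapping HSE of 3 units. Hspd1 and Hspe1 are neighbours read in opposite directions, and the Hspd1 site also falls in the window of Hspe1, so both genes count it. In Hsp90b1 the second ERSE is on the opposite strand. By the GENCODE M21 annotation, the matches of Hsph1, Hspd1, Hspa5 and Dnajb6 lie within an annotated exon of the gene itself, since its models include earlier starts than the RefSeq one. The matches shown for Hspa1a, Hspb6, Dnaja4, Hsp90b1 and Dnajc3 lie in no exon, and those of Hspb6 and Dnaja4 are inside the gene body.

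Per transcript length, a few members made up most of the chaperone RNA of sedentary muscle. Hspa8, the constitutive cytosolic HSP70, stood at 387 ± 46.5 CPM per kilobase (mean ± SD, n = 3), which was 18.8% of the summed level of the 63 tested members. Hsp90ab1, the constitutive cytosolic HSP90, followed at 285 ± 22.0 CPM per kilobase. Next came the small heat shock protein genes Hspb6 (201 ± 32.0 CPM per kilobase) and Hspb8 (145 ± 5.94), and Hspa9 of the mitochondrial matrix (138 ± 4.07). The SED libraries of Hspb8 and Hspa9 overlapped. By family, HSP70 genes held 28.4% of the summed level, small heat shock protein genes 27.6%, HSP90 genes 16.0%, DNAJC genes 9.41%, DNAJB genes 7.14%, DNAJA genes 5.22%, the chaperonin 4.48% and HSP110 genes 1.74%. Hspa12a and Hspa4l were the lowest of the 63 by this measure, at 0.853 and 0.822 CPM per kilobase in SED. The length used was that of the longest protein-coding transcript, 5734 and 9479 bases for these genes, and the order depends on that choice.

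**Figure D1:**
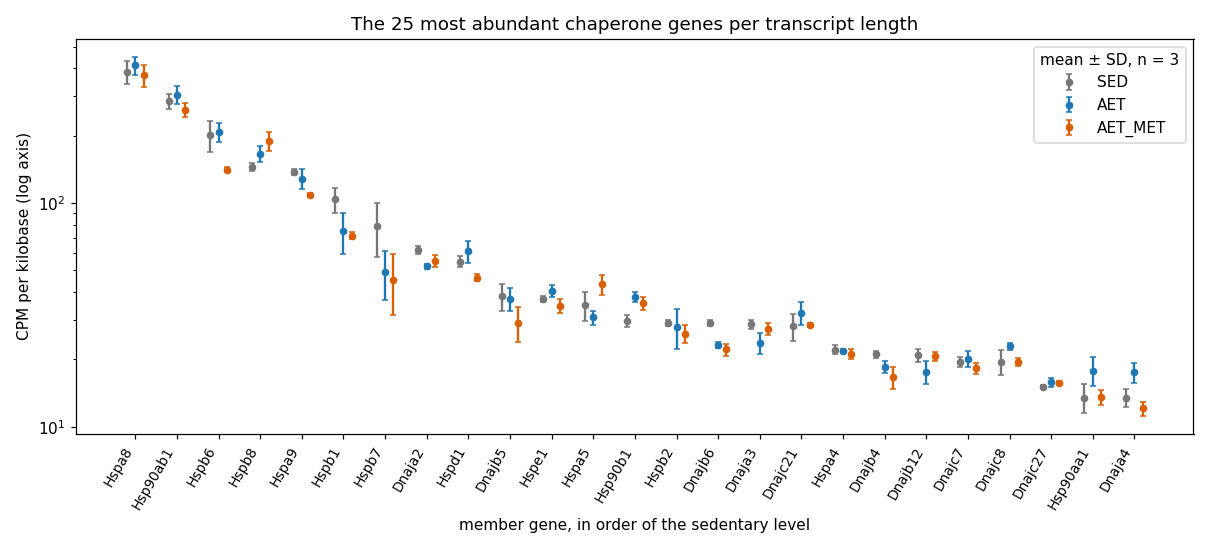
Level of the 25 most abundant tested chaperone genes in CPM per kilobase of the longest protein-coding transcript (log axis), as mean ± SD of 3 libraries in SED, AET and AET_MET. Hspa8 leads in SED at 387, and Hspb6 lies lower in AET_MET than in the other groups.

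Training alone went with higher Hspa12a, Hspa12b, Dnaja4, Hsp90b1 and Hsp90aa1 and with lower Dnajb9, Dnajb6 and Hspb1. Calls rest on edgeR's quasi-likelihood test of 13944 genes, with p-values adjusted by Benjamini-Hochberg over all of them and a threshold of 0.05. These 8 of the 63 members (12.7%) compare with 12.3% of all genes tested, so the share called was close to that of all genes. In 5 the level rose and in 3 it fell, against 5.82% and 6.45% of all genes. Among the genes with at least 5 CPM in at least 3 libraries, 7 of 60 members were called, beside 17.8% of all such genes. DESeq2 called 10 of 63 members, beside 12.7% of the genes that it gave an adjusted p (1694 calls among 13944 genes). The libraries of AET and SED did not overlap in 22 members (34.9%, against 32.7% of all genes). The median log2 change over the members was 0.07, beside 0.01 over all genes. The count was 3 without AET replicate 3 and 4 without SED replicate 1. Of the 16 members called in any comparison, 8 have exons that overlap another gene, and no source used here gives the strand setting of the counting, so reads of the overlapping parts cannot be told apart (Dnaja4, Dnajb6, Dnajb9, Hsp90b1, Hspa12a, Hspa1a, Hspb6 and Hspd1).

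With metformin added to training, 5 members differed from SED (7.94%, against 4.59% of all genes). Hspb8 rose, and Dnajb6, Hspb6, Hspa9 and Dnajb4 fell. Called rises made up 2.17% and called falls 2.42% of all genes. Among the genes with at least 5 CPM in at least 3 libraries, 6 of 60 members were called, beside 7.57% of all such genes. DESeq2 called 6 of 63 members, beside 7.80% of the genes that it gave an adjusted p (897 calls among 13944 genes). The libraries did not overlap in 16 members (25.4%, against 26.8% of all genes), and the median log2 change was -0.03, beside 0.00 over all genes. Without any scaling beyond library size, 3 members were called higher and 2 lower. The median of all genes then moved up to 0.10, and 79.5% of all calls were rises (47.3% with TMM scaling). The count was 3 without SED replicate 1, and 1 without SED replicate 2, SED replicate 3 or AET_MET replicate 3. It was 0 without AET_MET replicate 1. There edgeR gave 15 members an unadjusted p under 0.05 (18 with all libraries) and called 181 genes in all.

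Between the trained groups, 7 members differed (11.1%, against 3.43% of all genes). Hspa1a, Hsph1, Hspb6, Dnaja4 and Hspd1 were lower with metformin (5 members, or 7.94%, against 1.77% of all genes called lower). Dnajb9 and Hspa5, both of the ER, were higher (3.17%, against 1.66% of all genes). Among the genes with at least 5 CPM in at least 3 libraries, 7 of 60 members were called, beside 7.31% of all such genes. DESeq2 called 8 of 63 members, beside 7.80% of the genes that it gave an adjusted p (876 calls among 13944 genes). The libraries did not overlap in 20 members (31.7%, against 27.9%). In 42 of the 63 members the estimate was lower in AET_MET (66.7%, against 49.9% of all genes), with a median of -0.09 beside 0.00. With library sizes alone, 5 members were called higher and 4 lower, while 79.7% of all calls were rises (48.3% with TMM scaling) and 32 members had a lower estimate. The call count was 4 without AET replicate 1, 1 without AET_MET replicate 1 or 2, and 0 without AET replicate 3 or AET_MET replicate 3. In those last fits edgeR gave 15 and 19 members an unadjusted p under 0.05 (23 with all libraries), and called 34 and 23 genes in all. Each pair of these 3 comparisons shares the libraries of a group, so their values are given side by side and are not independent.

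**Figure D2:**
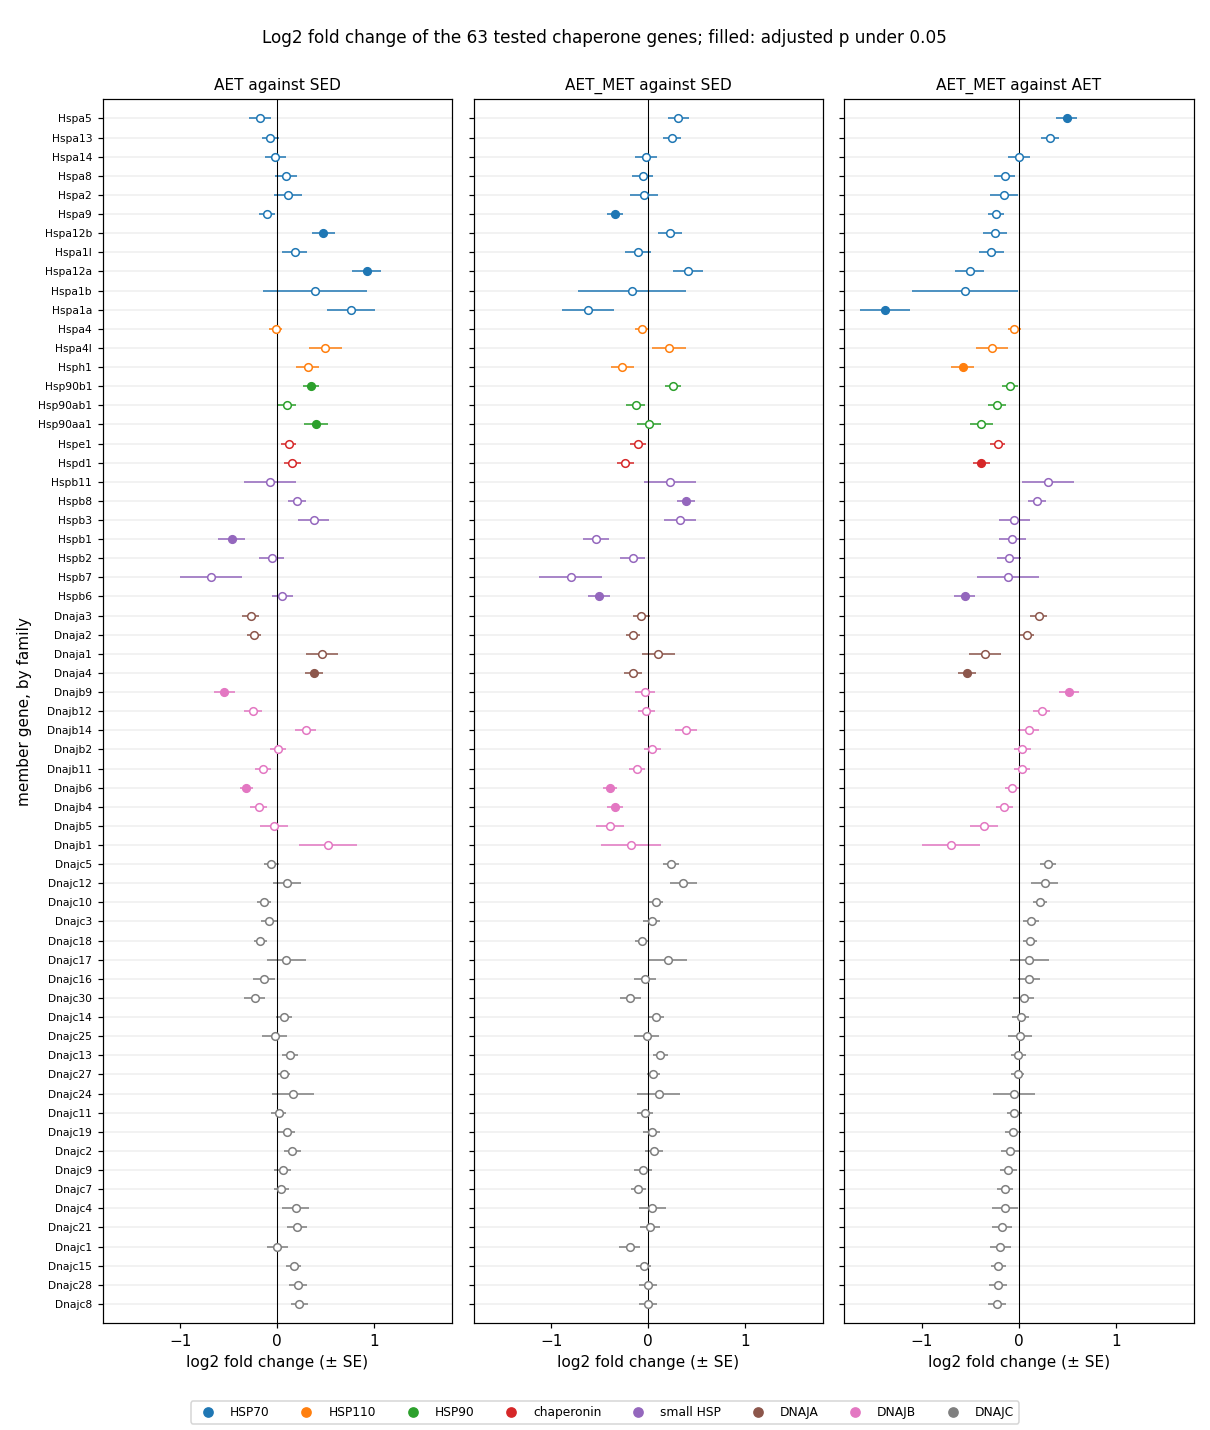
Log2 fold change (horizontal axis, ± SE) of each of the 63 tested members in the 3 comparisons, in order within family of the change between the trained groups. Filled points are the 8, 5 and 7 called members. Hspa1a has the point farthest from 0 in the panel of AET_MET against AET.

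**Figure D3:**
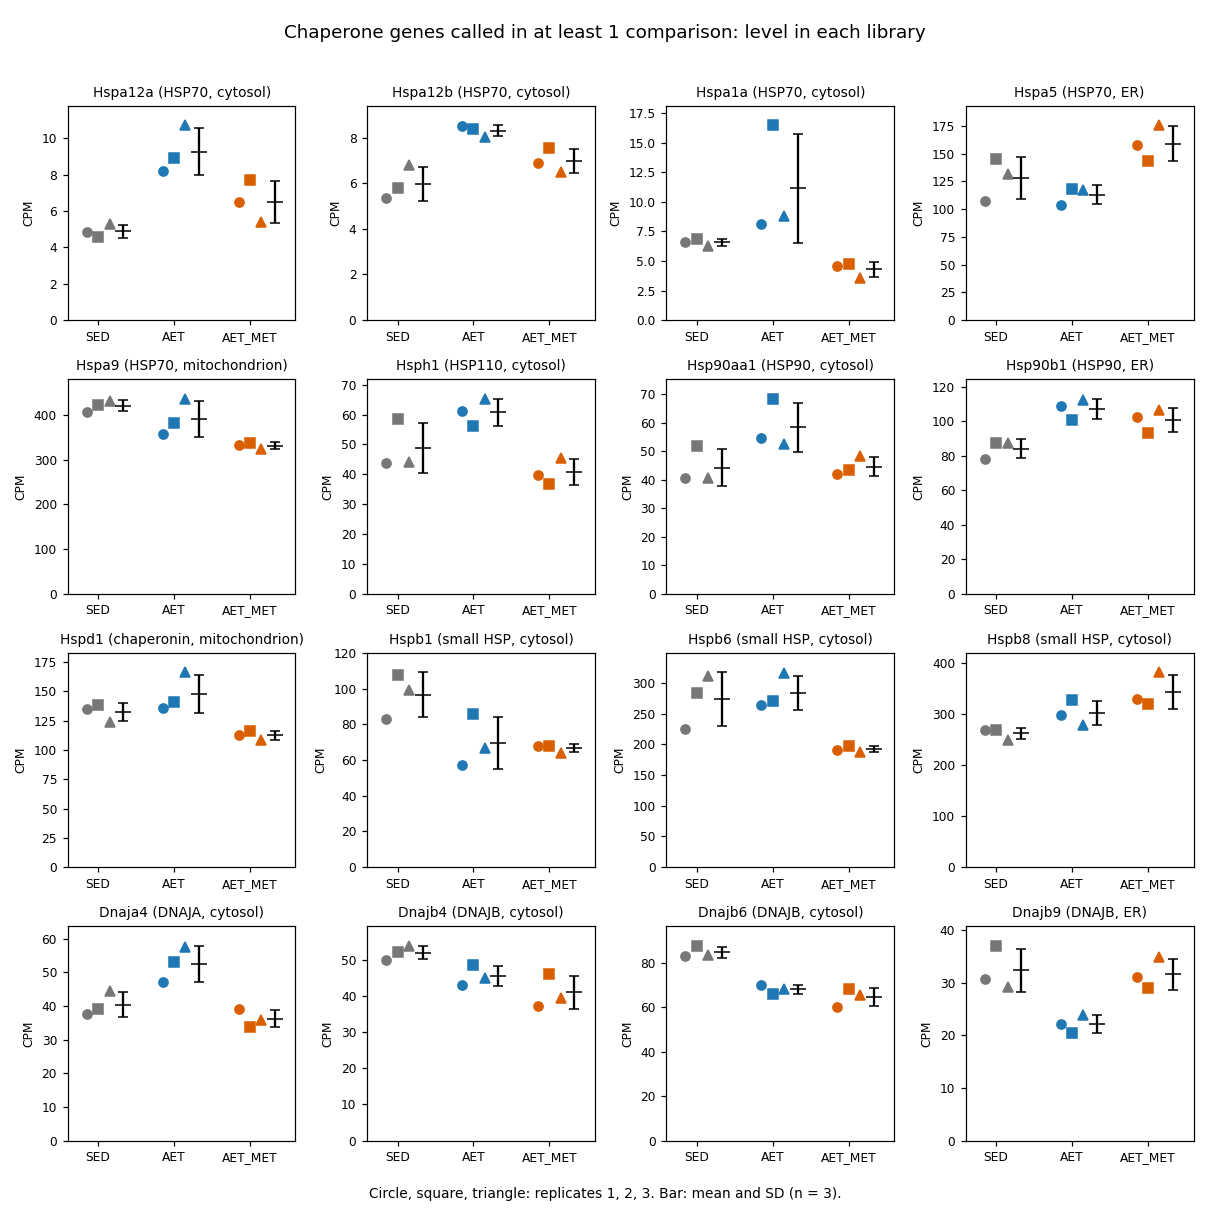
CPM in each of the 9 libraries for the 16 members called in at least 1 comparison, with the mean and SD of each group (n = 3). In Hspa1a, AET replicate 2 stands at 16.5 CPM, above the 8.11 and 8.84 CPM of the other AET libraries.

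In the HSP70 family, the stress-inducible gene Hspa1a showed the steepest called change. Hspa1a (chromosome 17, 34969190 to 34972156) stood at 6.62, 6.87 and 6.30 CPM in the SED libraries, at 8.11, 16.5 and 8.84 CPM in AET and at 4.56, 4.77 and 3.59 CPM in AET_MET. All AET libraries lay above, and all AET_MET libraries below, those of SED. The log2 change was -1.38 ± 0.26 between AET_MET and AET (edgeR adjusted p = 0.0263), 0.76 ± 0.25 between AET and SED (adjusted p = 0.0752) and -0.62 ± 0.27 between AET_MET and SED (adjusted p = 0.224). Without AET replicate 2 the first became -0.98 (edgeR adjusted p = 0.00965), the second 0.36 (adjusted p = 0.144), and the third stayed at -0.62 and was then called (adjusted p = 0.0372). The call between the trained groups was lost without AET replicate 3 or any 1 AET_MET library (edgeR adjusted p up to 0.124), with no filter on low counts (0.0572) and with only the groups compared in the fit (0.0659). Its neighbour Hspa1b is a near-identical copy, so the division of reads between the copies is uncertain. Hspa1b stood at 5.30, 14.4 and 3.37 CPM in AET, so AET replicate 2 was high there too, and at 7.46, 4.21 and 4.31 CPM in AET_MET. When the copies were summed, a choice made after seeing the data, AET_MET against AET changed by -0.98 ± 0.38 and was no longer called (edgeR adjusted p = 0.197). The sum was 13.4, 31.0 and 12.2 CPM in AET and 12.03, 8.98 and 7.90 CPM in AET_MET.

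Hspa12a and Hspa12b, which encode distant members of the HSP70 family, rose with training. Hspa12a (chromosome 19, 58795750 to 58943654) went from 4.82, 4.58 and 5.28 CPM in SED to 8.21, 8.90 and 10.7 CPM in AET, a log2 change of 0.92 ± 0.15 (edgeR adjusted p = 0.00241). In AET_MET it stood at 6.48, 7.69 and 5.39 CPM, between the other groups with no overlap (0.41 ± 0.15 against SED, adjusted p = 0.15; -0.51 ± 0.15 against AET, adjusted p = 0.0716). Its call with training held in each of the 9 fits with a library left out. Hspa12b, known from endothelial cells, went from 5.34, 5.77 and 6.79 CPM to 8.50, 8.35 and 8.03 CPM in AET (0.48 ± 0.12, adjusted p = 0.0235) and was at 6.91, 7.55 and 6.51 CPM in AET_MET. The Hspa12b call was lost without SED replicate 1 or 2 or any 1 AET library (adjusted p up to 0.0861).

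Beside these genes, markers of other cell types also moved. The 8 endothelial markers summed to 229 to 264 CPM in SED, 255 to 288 CPM in AET and 196 to 239 CPM in AET_MET. Of them, Kdr was called higher and Cldn5 lower in AET against SED. The 7 Schwann cell markers summed to 62.7 to 71.2, 114 to 189 and 47.9 to 102 CPM, and 2 of them were called higher in AET. The 7 smooth muscle and pericyte markers summed to 519 to 602, 605 to 721 and 508 to 610 CPM, with a median log2 change of 0.61 in AET against SED and Acta2 called higher. No marker of these lists was at 0 in every library, and their part in the Hspa12a and Hspa12b values was not tested. In bulk muscle, fewer cells of a type and less RNA per cell cannot be told apart.

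Hspa5, the HSP70 of the ER (also called BiP), was higher with metformin among trained mice. Hspa5 stood at 108, 145 and 132 CPM in SED, 104, 118 and 117 CPM in AET and 158, 144 and 175 CPM in AET_MET. No AET_MET library overlapped AET, while SED overlapped both. The log2 change of Hspa5 was 0.49 ± 0.11 against AET (edgeR adjusted p = 0.0336) and 0.31 ± 0.11 against SED (adjusted p = 0.132). The Hspa5 call was lost without any 1 AET or AET_MET library (adjusted p up to 0.155). Hspa13, the other ER member of the family, changed by 0.32 ± 0.09 between the trained groups (adjusted p = 0.0677). Hspa9, encoding the HSP70 of the mitochondrial matrix that pulls in imported proteins, fell from 408, 422 and 433 CPM in SED to 334, 338 and 323 CPM in AET_MET (-0.34 ± 0.09, adjusted p = 0.0393). Hspa9 in AET spread from 357 to 437 CPM. The Hspa9 call was lost in 7 of the 9 fits with a library left out (all but those without AET replicate 1 or 3, adjusted p up to 0.139), and with library sizes alone. Hspa8 stood at 927 ± 111, 989 ± 90.6 and 892 ± 98.6 CPM in SED, AET and AET_MET (SD, n = 3), with all adjusted p at 0.47 or more. The remaining HSP70 genes, Hspa1l, Hspa2 and Hspa14, were called in no comparison.

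Among the HSP110 exchange factors Hsph1 was called, and among the HSP90 genes Hsp90aa1 and Hsp90b1. Hsph1 (chromosome 5, 149614287 to 149636376) stood at 43.8, 58.5 and 44.3 CPM in SED, 61.1, 56.1 and 65.1 CPM in AET and 39.7, 36.9 and 45.4 CPM in AET_MET. The trained groups did not overlap (log2 change -0.58 ± 0.12, edgeR adjusted p = 0.0256), and SED overlapped both. The Hsph1 call was lost without AET replicate 1 or 3 or any 1 AET_MET library (adjusted p up to 0.109). Hspa4, the constitutive HSP110, stood at 102 ± 4.72, 101 ± 2.41 and 97.7 ± 4.92 CPM. Hsp90aa1, the inducible cytosolic HSP90, went from 40.5, 51.7 and 40.4 CPM in SED to 54.5, 68.3 and 52.4 CPM in AET (0.40 ± 0.12, adjusted p = 0.0498). This lies at the threshold, and Hsp90aa1 was called in 1 of the 9 fits with a library left out, that without SED replicate 2 (adjusted p up to 0.167 in the others). It was not called either with RLE size factors, with library sizes alone or with only the groups compared in the fit. In AET_MET it was at 42.1, 43.3 and 48.3 CPM, below all AET libraries (-0.39 ± 0.12, adjusted p = 0.0917).

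Hsp90b1, the HSP90 of the ER, rose from 77.9, 87.2 and 87.5 CPM in SED to 109, 101 and 112 CPM in AET (0.35 ± 0.08, edgeR adjusted p = 0.0144). Leaving out either SED replicate 1 or AET replicate 3 ended this call (highest adjusted p 0.0631). In AET_MET it stood at 102, 93.4 and 107 CPM, also above all SED libraries (0.26 ± 0.08, adjusted p = 0.087), and changed by -0.09 ± 0.08 between the trained groups. Hsp90ab1 stood at 719 ± 55.5, 769.6 ± 70.8 and 658 ± 44.8 CPM and was called in no comparison. Its log2 change between the trained groups was -0.23 (edgeR adjusted p = 0.194), and -0.29 to -0.13 under the other settings.

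The mitochondrial chaperonin pair, Hspd1 (HSP60) and its lid Hspe1 (HSP10), had lower estimates with metformin. Hspd1 stood at 135, 138 and 124 CPM in SED, 136, 141 and 166 CPM in AET and 113, 116 and 109 CPM in AET_MET. The AET_MET libraries lay below all others (log2 change -0.39 ± 0.09 against AET, edgeR adjusted p = 0.0319; -0.24 ± 0.09 against SED, adjusted p = 0.145). The Hspd1 call was lost with library sizes alone, and without AET replicate 3 or any 1 AET_MET library (adjusted p up to 0.129). Hspe1 went from 29.3, 31.7 and 33.0 CPM in AET to 24.7, 27.7 and 28.1 CPM in AET_MET, again without overlap (-0.22 ± 0.08, adjusted p = 0.13). Reads on Hspd1 pseudogenes came to at most 1.08% of those on Hspd1.

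Small heat shock proteins split in direction. Hspb6 (HSP20), a small heat shock protein of muscle, fell with metformin. Hspb6 (chromosome 7, 30552178 to 30555443) stood at 226, 284 and 311 CPM in SED, 265, 271 and 316 CPM in AET and 191, 198 and 188 CPM in AET_MET, where all libraries lay below the others. The log2 change was -0.56 ± 0.11 against AET (edgeR adjusted p = 0.0236), -0.51 ± 0.11 against SED (adjusted p = 0.0236) and 0.05 ± 0.11 with training alone. The call against AET was lost without AET replicate 3 or any 1 AET_MET library (adjusted p up to 0.108), and that against SED without SED replicate 2 or 3 or AET_MET replicate 1 or 3 (up to 0.104). Cryab, encoding the related alpha-B-crystallin, held 304 ± 46.1, 339 ± 68.4 and 213 ± 39.4 CPM and was not called (-0.67 ± 0.19 between the trained groups, adjusted p = 0.086). The 8 slow fiber markers summed to 837 to 1013 CPM in SED, 339 to 1280 CPM in AET and 89.1 to 724 CPM in AET_MET. All 8 had lower estimates in AET_MET against each other group, with median log2 changes of -1.26 against SED and -0.84 against AET, and the lowest edgeR adjusted p was that of Myl2 in both (0.265 and 0.341). The 9 fibroblast and tendon markers summed to 1316 to 1658, 933 to 1148 and 742 to 917 CPM. The part of either cell type in the Hspb6 value was not tested.

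Hspb8, a partner of the autophagy co-chaperone BAG3, moved the other way. Hspb8 stood at 269, 269 and 250.2 CPM in SED, 299, 328 and 279.9 CPM in AET and 329.6, 319 and 382 CPM in AET_MET. Both trained groups lay above SED, and the call was for AET_MET (0.39 ± 0.09, edgeR adjusted p = 0.0322; 0.20 ± 0.09 in AET, adjusted p = 0.162). The Hspb8 call was lost without any 1 SED library or AET_MET replicate 1 or 3 (adjusted p up to 0.163). Hspb1 (HSP27, HSP25 in mice) went from 82.9, 107 and 99.5 CPM in SED to 57.0, 85.7 and 66.7 CPM in AET (-0.47 ± 0.14, adjusted p = 0.0499), with overlap and at the threshold. It was called in 2 of the 9 fits with a library left out, which left out SED replicate 1 and AET replicate 2 (highest adjusted p 0.16 in the others), and in 4 of the 9 other alternatives. In AET_MET it stood at 68.0, 67.7 and 64.1 CPM, below all SED libraries (-0.54 ± 0.14, adjusted p = 0.0544). Hspb7, a heart and muscle form, was the most variable, at 218 ± 58.7, 136 ± 33.1 and 126 ± 38.1 CPM, and was not called (-0.68 ± 0.32 and -0.80 ± 0.32 against SED). Hspb2, which overlaps Cryab, and Hspb3 were called in no comparison.

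Of the DNAJA proteins, which assist cytosolic and mitochondrial HSP70, Dnaja4 was called. Dnaja4 (chromosome 9, 54698873 to 54716315) stood at 37.6, 39.0 and 44.6 CPM in SED, 47.1, 53.0 and 57.7 CPM in AET and 39.2, 33.9 and 35.8 CPM in AET_MET. AET lay above both other groups. Dnaja4 rose with training (0.38 ± 0.09, edgeR adjusted p = 0.021), and was lower in AET_MET than in AET (-0.54 ± 0.10, adjusted p = 0.0167). Leaving out SED replicate 1 or 2, or AET replicate 2 or 3, ended the first call (highest adjusted p 0.0921), and the second without AET replicate 3 or AET_MET replicate 2 or 3 (up to 0.0795). Dnaja1, a main partner of Hspa8, was at 24.4, 34.3 and 24.7 CPM in AET against 18.1, 24.4 and 18.1 CPM in SED (0.46 ± 0.16, adjusted p = 0.0973). Without AET replicate 2 this was 0.28 (adjusted p = 0.247). Dnaja2 stood at 180 ± 7.65, 152 ± 4.28 and 161 ± 10.01 CPM, and the mitochondrial Dnaja3 at 76.0 ± 3.76, 62.9 ± 6.87 and 72.4 ± 4.39 CPM. In AET both lay below all SED libraries without passing (-0.24 ± 0.08, adjusted p = 0.0527, and -0.27 ± 0.09, adjusted p = 0.0595).

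In the DNAJB family 9 members were tested and 3 were called. Dnajb9 (ERdj4), an ER co-chaperone of Hspa5, stood at 30.8, 37.0 and 29.2 CPM in SED, 22.1, 20.5 and 23.9 CPM in AET and 31.2, 28.9 and 34.8 CPM in AET_MET. AET lay below both other groups. Dnajb9 fell with training (-0.55 ± 0.10, edgeR adjusted p = 0.00589), was higher in AET_MET than in AET (0.51 ± 0.11, adjusted p = 0.0247) and differed by -0.03 ± 0.10 between AET_MET and SED. The fall with training was called in all 9 fits with a library left out, and the difference between the trained groups in 4, with the call lost without any 1 AET library or AET_MET replicate 1 or 3 (adjusted p up to 0.125). Dnajb6, a suppressor of protein aggregation that acts at the muscle Z-disc, fell in both trained groups. It stood at 83.3, 87.7 and 83.6 CPM in SED, 70.2, 65.9 and 68.1 CPM in AET and 60.3, 68.2 and 65.8 CPM in AET_MET. Its log2 change was -0.32 ± 0.07 in AET (adjusted p = 0.0125) and -0.39 ± 0.07 in AET_MET (adjusted p = 0.0105) against the shared SED libraries, and -0.07 ± 0.07 between the trained groups. The AET_MET call was lost without AET_MET replicate 1.

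Dnajb4 went from 50.2, 52.2 and 53.9 CPM in SED to 37.4, 46.2 and 39.5 CPM in AET_MET (-0.34 ± 0.09, edgeR adjusted p = 0.0423). It was called in 2 of the 9 fits with a library left out, those without AET replicate 1 or AET_MET replicate 2 (adjusted p up to 0.173 in the others). Upper-quartile factors and library sizes alone also ended the Dnajb4 call. Dnajb1 (HSP40), the inducible cytosolic partner of Hspa1a, stood at 6.19, 7.002 and 4.69 CPM in SED, 6.97, 12.96 and 5.76 CPM in AET and 5.86, 4.35 and 5.66 CPM in AET_MET. Like Hspa1a and Hspa1b, it was highest in AET replicate 2. Its log2 change between the trained groups was -0.70 ± 0.30 (adjusted p = 0.221), and -0.27 without that library. Dnajb5, a cytosolic form, and Dnajb11 of the ER were called in no comparison.

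DNAJC proteins share the J domain and little else, and direct HSP70 to single tasks. Of the 24 tested, edgeR called 0 in AET against SED, AET_MET against SED and AET_MET against AET. Of all genes, 12.3%, 4.59% and 3.43% were called. In the same order, 4, 2 and 5 had an unadjusted edgeR p under 0.05, beside 23, 18 and 23 of all 63 members. That share over all genes was not computed. DESeq2 called 0, 0 and 1, and limma-voom 0 in each. Their log2 changes ran from -0.23 to 0.36 over the 3 comparisons, the narrowest range of a family with more than 3 tested members. Dnajc5, encoding the synaptic vesicle chaperone CSP-alpha, came nearest, at 32.8, 34.7 and 34.4 CPM in AET and 41.6, 42.0 and 41.9 CPM in AET_MET (0.30 ± 0.08, adjusted p = 0.0612). Dnajc3 (p58IPK) of the ER, which holds an ERSE, stood at 47.8 ± 1.31, 45.0 ± 1.90 and 48.9 ± 5.44 CPM. Dnajc10 (ERdj5), an ER reductase, changed by 0.22 ± 0.07 between the trained groups (adjusted p = 0.108). Dnajc15 and Dnajc19, which belong to the protein import motor of mitochondria, changed by -0.21 ± 0.08 and -0.06 ± 0.08 there. Dnajc7, which also binds HSP90, changed by -0.14 ± 0.08.

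By compartment, the medians of cytosolic and ER members lay on opposite sides of 0 between the trained groups. Compartments came from a list set up for this report, and the counts rest on it. It places 7 tested members under other, among them Dnajc4, Dnajc14, Dnajc16 and Dnajc28. Of the 32 tested cytosolic members 28 had a lower estimate in AET_MET than in AET, with a median log2 change of -0.15, 4 called lower (Hspa1a, Hsph1, Hspb6 and Dnaja4) and none called higher. Beside them stand 1.77% of all genes called lower, 1.66% called higher and 49.9% with a lower estimate. With other scalings 22 to 28, and with a library left out 22 to 29, had a lower estimate. Of the 12 ER members 2 had a lower estimate, as under each other scaling (2 to 4 with a library left out). Their median was 0.12, and 2 were called higher (Hspa5 and Dnajb9). In mitochondria 6 of 8 had a lower estimate (4 with library sizes alone), with a median of -0.14 and 1 called lower, Hspd1. With library sizes alone the medians were -0.07 in the cytosol, 0.20 in the ER and -0.05 in mitochondria. In AET against SED the same sets stood the other way, with medians of 0.13 in the cytosol and -0.11 in the ER. This is given as values, since both comparisons use the AET libraries. In AET_MET against SED the medians were -0.08 and 0.01, but 0.02 and 0.11 with library sizes alone. With a library left out the ER median ran from -0.06 to 0.07 there.

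Members were also grouped by promoter letters, and the difference between those with and without an HSE of 2 units was not tested. Of the 14 tested members with a match, 13 were lower in AET_MET than in AET, with a median log2 change of -0.29, and 5 were called lower. Of all genes 49.9% had a lower estimate and 1.77% were called lower. These were all the members called lower in this comparison: Hspa1a, Hsph1, Hspb6, Dnaja4 and Hspd1, whose sites are printed above. Of the 37 tested members with a promoter entry and no match, 22 were lower, with a median of -0.05, 0 called lower and 2 higher. Without AET replicate 2 the counts were 10 of 14 and 21 of 37, with medians of -0.14 and -0.06. With library sizes alone, the scaling furthest from the others, the medians were -0.21 and 0.04. Over all scalings other than TMM, library sizes alone included, 9 to 13 of the 14 and 17 to 22 of the 37 had a lower estimate. Hspa1a and Hspa1b are near-identical copies, and Hspd1 and Hspe1 share their site, so these 14 are not separate cases. Of the 63 tested members 51 had a promoter entry. Those without one, among them Hspa8, Hspa9, Hsp90aa1 and Hsp90ab1, stand in neither group. The inducible Dnajb1 stands among those with no match, so the groups do not divide inducible from other members. In AET against SED the medians were 0.14 with and 0.07 without a match. The 3 genes with an ERSE changed by 0.49 (Hspa5), 0.12 (Dnajc3) and -0.09 (Hsp90b1) between the trained groups. In AET_MET against SED their estimates were 0.31, 0.04 and 0.26, with a median of 0.26 and none called.

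**Figure D4:**
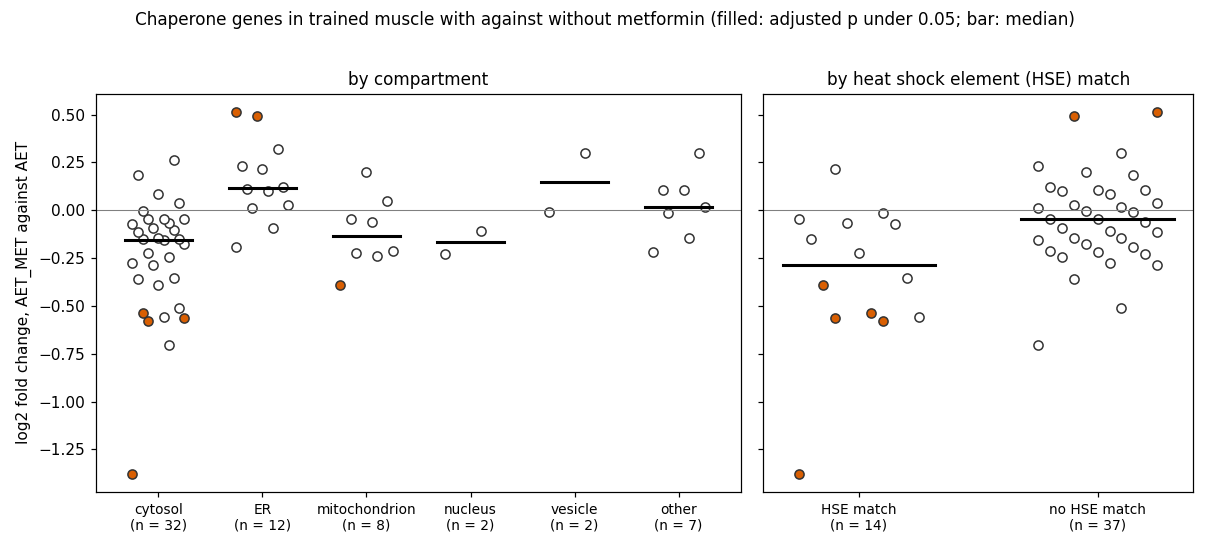
Log2 fold change of tested members between AET_MET and AET (vertical axis), by compartment (left) and by a heat shock element of 2 units in the promoter window (right). Each point is a gene, filled points are called genes and bars are medians. The bars lie at -0.15 for the cytosol and 0.12 for the ER, and at -0.29 with and -0.05 without a match.

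Partner genes of the chaperone system came from 8 lists with 69 genes, 67 of them tested. In AET against SED 9 partners were called (13.4%, against 12.3% of all genes), 3 higher and 6 lower. Of the heat shock factors, Hsf2 fell from 27.9 ± 2.09 to 20.1 ± 1.43 CPM (SD, n = 3; log2 change -0.47 ± 0.09, edgeR adjusted p = 0.00656), while Hsf1, the main heat shock regulator, was at 21.4 ± 1.35 and 21.8 ± 1.66 CPM (0.02 ± 0.09). Of 17 HSP90 co-chaperones, Cdc37, which brings kinases to HSP90, rose (0.32 ± 0.09, adjusted p = 0.0331), and Fkbp5, a co-chaperone of the glucocorticoid receptor and itself glucocorticoid-induced, fell from 126 ± 22.8 to 32.2 ± 5.87 CPM (-1.97 ± 0.47, adjusted p = 0.0431). Of 9 HSP70 co-chaperones 1 rose, St13 (0.25 ± 0.07). Of 11 mitochondrial partners 2 fell, Clpx, the unfoldase of the matrix protease (-0.61 ± 0.10, adjusted p = 0.00239), and Grpel1, the exchange factor of Hspa9 (-0.35 ± 0.10). Of 8 subunits of the cytosolic chaperonin TRiC 1 fell, Cct2 (-0.25 ± 0.06), and of 6 prefoldin subunits 1, Vbp1 (-0.52 ± 0.11). All 8 TRiC subunits had a lower estimate, with a median of -0.17. The partner count was 3 without SED replicate 1, SED replicate 2 or AET replicate 3, 4 without AET replicate 1 and 5 with only the groups compared in the fit. Hsf2, Clpx and Vbp1 were called in each of the 9 fits with a library left out. Cdc37 and Cct2 were called in 5 of them, Fkbp5 and Grpel1 in 3 and St13 in 1.

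In AET_MET against SED 3 partners were called (4.48%, against 4.59% of all genes). Hyou1, the HSP110 of the ER, and Manf, a secreted ER stress protein, rose, at 0.42 ± 0.09 (edgeR adjusted p = 0.0209) and 0.59 ± 0.15 (adjusted p = 0.0481). Clpx fell (-0.60 ± 0.10, adjusted p = 0.00764) and stood at 62.1 ± 6.35 CPM beside 61.6 ± 6.81 in AET. Of the 11 ER partners 2 had a lower estimate, and the median was 0.21. With a library left out, Hyou1 was called in 5 of 9, Manf in 3 and Clpx in 9. That partner count was 1 without SED replicate 2, SED replicate 3, AET_MET replicate 1 or AET_MET replicate 3. Between the trained groups 4 partners were called (5.97%, against 3.43% of all genes). Cdc37 was lower in AET_MET (-0.47 ± 0.09, adjusted p = 0.022), as was the prefoldin subunit Pfdn2 (-0.65 ± 0.13), and Cct2 (0.25 ± 0.06) and Vbp1 (0.47 ± 0.11) were higher. This count ran from 0, without AET replicate 3, AET_MET replicate 1 or AET_MET replicate 3, to 3 with other libraries left out, and was 8 with DESeq2. The Cct2 call between the trained groups was lost in all 9 fits with a library left out (adjusted p up to 0.158), and in 5 of the 9 other alternatives. Vbp1 was called there in 2 of the 9, without SED replicate 1 or AET replicate 2. Cdc37 lost this call without AET replicate 3 or AET_MET replicate 1 or 3, and Pfdn2 without these or AET replicate 1.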

How the data were processed

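RNA from 9 gastrocnemius samples, 3 in each group, was sequenced after preparation with a SMARTER mRNA-Seq kit, per the labels. The authors deposited a table of expected counts per gene. Per the submitters' processing notes, STAR 2.5.3a, RSEM 1.3.0, edgeR 3.34.0 and GRCm38 were used, and no source used here states the annotation release, filters or strand setting. Expected counts were rounded to whole numbers. Symbols came from GENCODE M21 and promoters from RefSeq (GRCm38.p6).

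edgeR 4.0.16 (R 4.3.3) was run with TMM scaling, filterByExpr and the robust quasi-likelihood test in 1 fit of 9 libraries and 13944 genes. The threshold for a call was 0.05 on p-values adjusted by Benjamini-Hochberg. CPM values are TMM-scaled, and log2 changes carry the SE derived from the F statistic. Level per kilobase used the longest protein-coding transcript.

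Named genes were every called member, a fixed panel of chaperones, and the called partner genes with the smallest p. Others named were chosen after their values were seen. The values of 1 called partner gene are not reported here. Members and lists were chosen with earlier results of these data known. Alternatives were other scalings, filters, DESeq2 1.42.0, limma-voom (limma 3.58.1), fits of only the groups compared, a replicate block and leaving out each library. Summing Hspa1a with Hspa1b, and all alternatives for the partner genes, were added after seeing the data. The test was checked on simulated counts with the same spread for every gene. In AET against SED it called 97% of 100 genes changed by a log2 size of 1, and 46% of 100 changed by 0.58. A gene that was not called may therefore still have changed. Each group has its own stem in the library names, and any batch that this marks cannot be told apart from the group.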

Additional observations from a re-analysis of the deposited data

How the results depend on the processing

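No called gene value changed direction under any of the 18 settings, and 3 of 20 (Hspa12a, Dnajb9 and Dnajb6 in AET against SED) were called under all of them. Of the 20, 12 were called under all 9 settings that keep every library. With a library left out, the chaperone count ran from 3 to 7 in AET against SED (8 with all), from 0 to 6 in AET_MET against SED (5) and from 0 to 8 in AET_MET against AET (7). The partner count ran from 3 to 8 (9), from 1 to 4 (3) and from 0 to 3 (4). With only the groups compared in the fit the partner counts were 5 in AET against SED and 2 in AET_MET against AET, and the latter was 7 with at least 5 CPM in 3 libraries, 8 with DESeq2 and 2 with the replicate block. Deviations from the group mean correlated weakly between samples with the same replicate number (r from -0.0509 to 0.184 over 9 pairs, 2 of them over 0.1). From 3 libraries a group, such values cannot show whether the numbers pair the samples. With the replicate block the chaperone counts were 9, 4 and 5, and the adjusted p was 0.0539 for Hspa9 and 0.0557 for Hspb8 in AET_MET against SED, and 0.0560 for Hspd1 and 0.0518 for Hsph1 in AET_MET against AET. Upper-quartile factors gave 58.0% rises among all calls in AET against SED (47.4% with TMM) with 7 members called, 5 of them higher. Single signs were followed only for the called values and the fixed panel of chaperones. Of its 84 uncalled values, 26 turned sign under at least 1 setting. Over all 63 members, other scalings took the number with a lower estimate from 36 to as few as 21 in AET_MET against SED. In AET_MET against AET it went from 42 to as few as 32. The turned signs of the panel follow. In AET against SED it became 0.015 for Hspa4 with upper-quartile factors and 0.010 for Hspa4 with the 5 CPM filter. In AET_MET against SED it became 0.029 for Dnaja3, 0.0021 for Dnajc7, 0.063 for Dnajb9, 0.038 for Hspa8, 0.034 for Hspa4 and 0.058 for Dnajc15 with library sizes alone. In AET_MET against AET it became 0.012 for Hspb1, 0.043 for Hspa4, 0.031 for Dnajc19, 0.019 for Dnajb6 and 0.037 for Hspb3 with library sizes alone. With a library left out, the range in AET against SED was -0.14 to 0.00078 for Dnajc5, -0.0027 to 0.11 for Dnajc7, -0.042 to 0.019 for Hspa4, -0.14 to 0.062 for Dnajb5, -0.070 to 0.15 for Hspb6, -0.23 to 0.066 for Hspb2 and -0.45 to 0.75 for Hspa1b. With a library left out, the range in AET_MET against SED was -0.12 to 0.076 for Dnajb9, -0.16 to 0.044 for Hspa8, -0.060 to 0.14 for Hsp90aa1, -0.068 to 0.078 for Dnajc3, -0.019 to 0.091 for Dnajc19 and -0.017 to 0.27 for Dnaja1. With a library left out, the range in AET_MET against AET was -0.045 to 0.057 for Dnajb11, -0.19 to 0.11 for Hspb1, -0.30 to 0.11 for Hspb7, -0.23 to 0.065 for Hspb2, -0.13 to 0.056 for Hspb3 and -0.91 to 0.29 for Hspa1b. The cause was not tested.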

Other observations

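Several uncalled members lay just outside the threshold, at an edgeR adjusted p from 0.05 to 0.1. There were 7 in AET against SED (Dnaja1, Dnaja2, Dnaja3, Dnajb12, Hspa1a, Hspa4l and Hsph1), 3 in AET_MET against SED (Dnajb14, Hsp90b1 and Hspb1) and 4 in AET_MET against AET (Dnajc5, Hsp90aa1, Hspa12a and Hspa13).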
